A study of Mus musculus with 8 samples.

Results

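The tubulin genes described here are 10 isotype genes of the mouse, Tuba3a, Tuba3b, Tuba8, Tuba1a, Tuba1b, Tubb4b, Tubb3, Tubb5, Tubb2a and Tubd1. They were listed by name, for where each isotype is known to be used, with earlier results of these data known. All 10 have a row among the 17127 genes measured. Whole testes were taken from 4 wild-type males (wild type 1 to 4) and from Iqch-/- males of which 3 were analysed (mutants 1, 2 and 4), all aged 4 months, with 1 library per mouse. The Iqch mutants came from B6CBAF1 zygotes edited with CRISPR-Cas9, carry small deletions within 1 coding exon of Iqch in the homozygous state and are infertile as males. The study describes a pair of edited lines and names the mutant RNA-seq data as those of the Iqch mu7 line. Mutant 3 is not analysed here, and the study set 1 mutant library aside as standing apart.

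Microtubules are polymers of a dimer of alpha- and beta-tubulin, and mammals carry several genes, called isotypes, for each subunit. The isotypes differ most in the acidic C-terminal tail, the part that is modified by glutamylation, glycylation and the removal or addition of a final tyrosine. Spermatids build large microtubule arrays, the manchette that shapes the sperm head and the axoneme of the sperm tail. Sertoli, Leydig and other somatic cells of the testis mostly hold interphase microtubules built from widely expressed isotypes.

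Tuba3a, Tuba3b and Tuba8 encode alpha-tubulins found mainly in testis, and Tubb4b encodes the main beta-tubulin of cilia and flagella. Tubd1 encodes delta-tubulin, a protein of centrioles that is needed for their triplet microtubules and that has been localised to the manchette. Tuba1a, Tuba1b and Tubb5 encode the alpha- and beta-tubulins of most dividing and somatic cells. Tubb2a encodes a beta-tubulin abundant in brain, and Tubb3 encodes the class III beta-tubulin best known as a marker of neurons and also found in Sertoli cells.

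The last 30 coding bases of 9 isotypes are shown. In the alpha- and beta-tubulins they encode the end of this tail, on which enzymes act and whose last residue differs between several isotypes. The bases of Tubd1, which hold no codon for an acidic residue, are given beside these. All are written 5′ to 3′ on the coding strand, from the canonical GENCODE M39 transcripts on GRCm39, with the last codon before the stop in capitals.
Tuba3a, chr6:125255321-125255350, minus strand: gcagaggcagaagaaggggaggagTACtga
Tuba3b, chr6:145567084-145567113, plus strand: gcagaggcagaagaaggggaggagTACtga
Tuba8, chr6:121203009-121203038, plus strand: gaagaagagaatgagggggaggaaTTTtaa
Tuba1b, chr15:98829463-98829492, minus strand: gagggggaggaagaaggagaggagTACtaa
Tubb4b, chr2:25112320-25112349, minus strand: gaggaggaggctgaggaggaggtgGCTtag
Tubb5, chr17:36145874-36145903, minus strand: ttcggagaggaggcagaagaggagGCCtaa
Tubb2a, chr13:34258451-34258480, minus strand: gaggaggaggagggtgaagatgagGCTtga
Tubb3, chr8:124148392-124148421, plus strand: gaggaatcggaagcccaggggcccAAGtga
Tubd1, chr11:86457942-86457971, plus strand: gttgccagttatggtagtcttggaCCCtaa
Tuba3a, Tuba3b and Tuba1b end with TAC, a codon for tyrosine, the residue that detyrosinating enzymes remove. Tuba8 ends with TTT, a phenylalanine codon. Tubb4b, Tubb5 and Tubb2a end with an alanine codon, Tubb3 with AAG for lysine and Tubd1 with CCC for proline. Tuba3a and Tuba3b are identical over these 30 bases.

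Over their whole coding sequences of 1353 bases, Tuba3a and Tuba3b differ at 41 positions, an identity of 97.0%. The stretch from coding base 316 to 345, counted from the first base of the start codon, holds 6 of these differences, which are in capitals and are what a read can use to tell the pair apart.
Tuba3a: ggCcaCtaCaccatCggcaaAgagattgtC
Tuba3b: ggTcaTtaTaccatTggcaaGgagattgtT
The other alpha isotypes are farther apart. Tuba3b and Tuba1b were identical over 85.0% of aligned coding columns and Tuba3a and Tuba8 over 81.3%. Tubb4b shared 82.3% with Tubb5, 83.6% with Tubb2a and 82.0% with Tubb3.

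Values are CPM, in which each gene's reads are scaled to a library of 1000000 reads on the genes of the table, and 32064384 to 37551057 reads stood behind a library. Fold changes are differences of mean log2(CPM + 0.1), mutant minus wild type, tested with limma over 17126 genes with Benjamini-Hochberg adjustment (FDR) and called at an FDR of 0.01. By this rule 50.4% of all genes were called, 36.3% as higher and 14.2% as lower in the mutants, so a call alone does not set a gene apart here. Over all genes the median log2 fold change was 0.12, which dividing by median-of-ratios size factors brings to -0.01. Iqch itself fell from 207.8 ± 11.3 CPM (SD, n = 4) to 67.26 ± 2.25 (SD, n = 3). Of the 10 isotypes, 4 were called higher and 4 lower, and 2 did not pass. Elongating spermatid markers (Prm1, Prm2, Akap4 and 5 others) summed to 22710 to 23990 CPM in the wild type, so the labelled tissue showed its germ cells.

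The germ-cell isotypes were the most abundant tubulin RNAs of every library. Tuba3a (chromosome 6, 125255232 to 125263033, minus strand) was measured at 1184, 1131, 1173 and 1119 CPM in wild type 1 to 4, and at 1156, 900.9 and 1016 CPM in mutants 1, 2 and 4. Mutant 1 lay within the wild-type range and the other 2 mutants lay below it, so the groups overlapped. The log2 fold change was -0.18 ± 0.07 (SE) with a limma FDR of 0.0322, and Tuba3a was not called on the deposited CPM. It was called after size factors, at -0.31 and an FDR of 0.00252, and also without mutant 1, at -0.27 and an FDR of 8.38e-04. It was not called in the other 6 fits that each leave out a library, and without mutant 2 it was -0.09 with an FDR of 0.183.

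Tuba3b (chromosome 6, 145561483 to 145567205, plus strand) had 1575, 1506, 1392 and 1548 CPM in the wild type and 1193, 1207 and 1154 CPM in the mutants. All 3 mutants were below all 4 wild-type libraries, and the mutants spread less than the wild type. Tuba3b fell by 0.34 ± 0.04 (SE) on the log2 scale (limma, FDR 2.66e-05). Both Tuba3 genes encode alpha-tubulins of the same kind, yet their balance was not the same in each mutant. The per-kilobase ratio of Tuba3a to Tuba3b was 0.885 ± 0.0599 (SD, n = 4) in the wild type, with a range of 0.834 to 0.972. It was 1.12 in mutant 1, 0.861 in mutant 2 and 1.02 in mutant 4, so mutant 2 stood inside the wild-type range and mutants 1 and 4 above it. Summed to a single row, the pair gave -0.27 ± 0.04 (SE; limma, FDR 1.73e-04).

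Tuba8 (chromosome 6, 121187638 to 121203818, plus strand), the alpha-tubulin that lacks the final tyrosine codon, had 225.8, 246.3, 217.7 and 293.1 CPM in the wild type and 213.4, 197.5 and 188.0 CPM in the mutants. The highest mutant was just below the lowest wild-type library, and wild type 4 stood above the rest. Tuba8 fell by 0.29 ± 0.08 on the log2 scale (limma, FDR 0.00936). The call rested on single libraries. It was lost without wild type 2, mutant 2 or mutant 4, with an FDR of up to 0.0418 over the 7 fits that each leave out a library.

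Tubb4b (chromosome 2, 25112170 to 25114714, minus strand), the flagellar beta-tubulin, had 1223, 1152, 1067 and 1154 CPM in the wild type and 1007, 901.4 and 937.5 CPM in the mutants. The groups did not overlap. Tubb4b fell by 0.28 ± 0.05 on the log2 scale (limma, FDR 4.21e-04), and it was called in each of the 7 fits without 1 library.

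The delta-tubulin gene Tubd1 (chromosome 11, 86435781 to 86468466, plus strand) was at far lower CPM, with 31.92, 24.67, 31.62 and 33.61 in the wild type and 36.86, 36.83 and 35.35 in the mutants. Every mutant was above every wild-type library, and wild type 2 was the lowest. The log2 fold change was 0.26 ± 0.09 with a limma FDR of 0.0225, and Tubd1 was not called. After size factors it was 0.13 with an FDR of 0.233. Without wild type 2 it was 0.17 with an FDR of 0.0341. Without wild type 4 it was 0.31 with an FDR of 0.00955, below the threshold, and it was not called in the other 6 fits without a library.

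**Figure D1:**
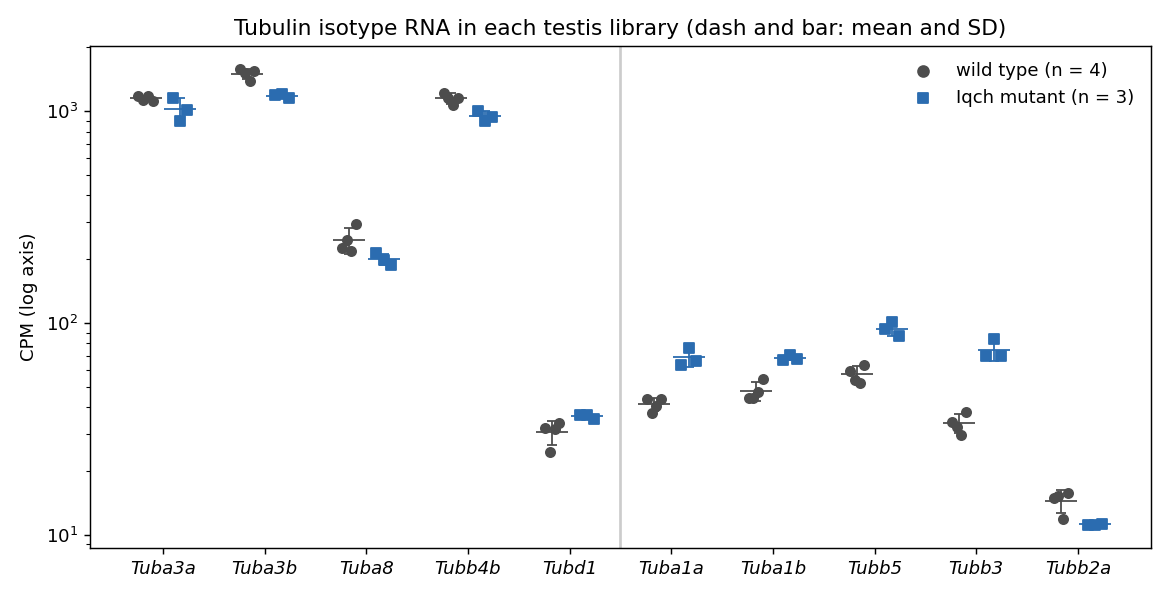
CPM of each tubulin isotype in each library on a log axis, with grey circles for wild type (n = 4), blue squares for Iqch mutants (n = 3), and dashes and bars for mean and SD; germ-cell isotypes and Tubd1 are left of the line. Tuba3a, Tuba3b and Tubb4b sit between 900.9 and 1575 CPM, with mutants lower for Tuba3b and Tubb4b, while the mutants are higher for Tuba1a, Tuba1b, Tubb5 and Tubb3 and lower for Tubb2a.

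Tuba1a, Tuba1b, Tubb5, Tubb3 and Tubb2a are grouped here as the 5 isotypes in wide use. The name is a group label, since Tubb3 and Tubb2a are best known from neurons and brain. Of these 5, 4 rose in the mutants. In bulk tissue a change in the number of cells of a type and a change in RNA per cell cannot be told apart, which holds for the falls above as well. Tuba1a (chromosome 15, 98847714 to 98851589, minus strand), the alpha-tubulin of neurons and many other cells, had 43.71, 37.52, 40.63 and 43.57 CPM in the wild type. It had 63.38, 76.5 and 66.19 CPM in the mutants, all above the wild type, with mutant 2 the highest. Tuba1a rose by 0.73 ± 0.07 on the log2 scale (limma, FDR 2.84e-06).

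Tuba1b (chromosome 15, 98827738 to 98832493, minus strand), its neighbour and the usual alpha-tubulin of dividing cells, had 44.28, 44.19, 47.17 and 54.51 CPM in the wild type and 67.00, 70.55 and 67.63 CPM in the mutants. The groups did not overlap, and wild type 4 was closest to the mutants. Tuba1b rose by 0.53 ± 0.07 (limma, FDR 3.04e-05).

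Tubb5 (chromosome 17, 36144809 to 36149198, minus strand), the usual beta-tubulin of dividing cells, had 59.6, 53.57, 51.89 and 63.57 CPM in the wild type and 94.12, 101.1 and 87.17 CPM in the mutants. Again no mutant reached down to the wild type. Tubb5 rose by 0.72 ± 0.07 (limma, FDR 3.08e-06).

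Tubb3 (chromosome 8, 124138163 to 124150092, plus strand) showed the largest log2 fold change of the 10 isotypes. It had 34.17, 32.42, 29.67 and 38.05 CPM in the wild type and 69.5, 84.39 and 69.66 CPM in the mutants. Each mutant was far above the highest wild-type library, and mutant 2 was again the highest, as for Tuba1a, Tuba1b and Tubb5. Tubb3 rose by 1.15 ± 0.09 (limma, FDR 2.46e-07), between 1.06 and 1.21 without any 1 library. The 5 neuronal markers chosen for comparison (Rbfox3, Snap25, Syn1, Nefl and Nefm) have no row among the genes measured, so neuronal RNA was not assessed here.

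Tubb2a (chromosome 13, 34257549 to 34261998, minus strand) was the isotype of this group that went the other way, lower as Tuba3b, Tuba8 and Tubb4b were. It had 14.84, 15.2, 11.81 and 15.79 CPM in the wild type and 11.15, 11.17 and 11.27 CPM in the mutants. The mutants lay close together and wild type 3 only just above them. Tubb2a fell by 0.35 ± 0.10 (limma, FDR 0.00761). This call was kept in 1 of the 7 fits without a library, that without wild type 3 (-0.44), and lost in the other 6, with an FDR of up to 0.0247.

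For single genes, the exact permutation test has 35 ways to assign 7 libraries to groups of 4 and 3, and its smallest exact p is 0.029 when absolute differences are counted. Tuba3b, Tubb4b, Tuba1a, Tuba1b, Tubb5 and Tubb3 reached this smallest exact p. The exact p was 0.057 for Tuba8, Tubd1 and Tubb2a and 0.086 for Tuba3a. With the smaller tail doubled, the smallest exact p is 0.057. Groups did not overlap for 9 of the 10 isotypes, all but Tuba3a, and for 62.3% of all genes. The mutants were higher for 5 of the 9 (42.8% of all genes) and lower for 4 (19.5% of all genes).

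Set against the median of all genes, the log2 fold changes were -0.30 for Tuba3a, -0.47 for Tuba3b, -0.41 for Tuba8 and -0.40 for Tubb4b. For the isotypes in wide use they were 0.61 for Tuba1a, 0.41 for Tuba1b, 0.60 for Tubb5, 1.03 for Tubb3 and -0.47 for Tubb2a, with Tubd1 at 0.14. After size factors Tuba3a was called lower as well, so that 4 of the 5 germ-cell and centriolar isotypes were lower and 4 of the 5 in wide use higher, with 52.1% of all genes called, 27% as higher and 25.1% as lower. No isotype changed direction with the scaling.

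**Figure D2:**
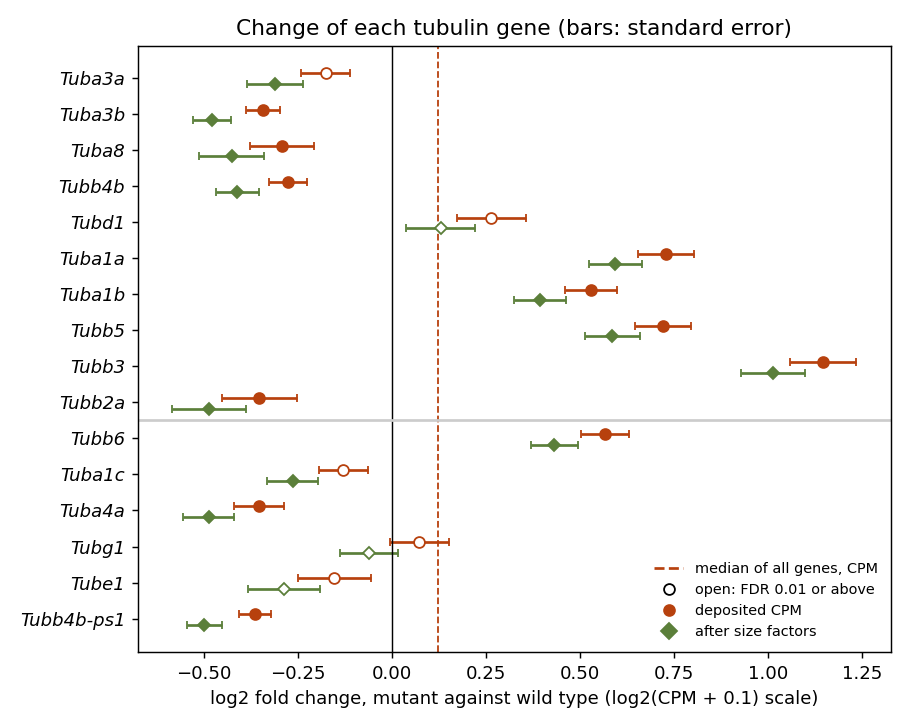
Log2 fold change (mutant against wild type) with its standard error for the 10 isotypes above the grey line, and for the 5 other tubulin genes and the pseudogene Tubb4b-ps1 below it, on deposited CPM (circles) and after size factors (diamonds), with open symbols for an FDR of 0.01 or above. Tubb3 stands farthest right at 1.15, the germ-cell alpha isotypes and Tubb4b lie between -0.34 and -0.18, and the dashed line marks the median of all genes at 0.12.

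The changes in the isotypes ran beside changes in cell type markers. The counts of called markers stand beside 36.3% of all genes called higher and 14.2% called lower. With size factors these shares were 27% and 25.1%. All 11 Sertoli markers tested were called higher, with summed levels of 1166 to 1255 CPM in the wild type and 2384 to 2540 CPM in the mutants. Of the 11, 8 were called higher after size factors. Of 8 Leydig markers 7 were higher (1057 to 1268 against 4425 to 4581 CPM), as were 5 of 5 macrophage markers (47.3 to 53.5 against 101 to 122 CPM) and 2 of 4 endothelial markers (26.5 to 30.5 against 40.7 to 42.5 CPM). Among the endothelial markers Kdr went from 3.691 to 13 CPM. Vwf went the other way, from 18.32 to 15.79 CPM, and was called lower after size factors. The peritubular markers, 1 of 4 called higher, summed to 66.2 to 90.1 CPM in the wild type and 76.5 to 102 CPM in the mutants. Spermatogonial markers, 3 of 7 called higher, summed to 71.5 to 79.3 and 114 to 142 CPM. Kit held the largest part of this rise, from 21.74 to 62.22 CPM, while Sohlh1 went from 7.255 to 6.562 CPM. Zbtb16 was called higher although its groups overlapped, with mutant 1 at 6.464 CPM and the wild type at up to 6.543 CPM. After size factors 1 of the 7 spermatogonial markers was called higher. All 8 markers of elongating spermatids were lower (22710 to 23990 against 14390 to 16550 CPM), as were 5 of 6 of round spermatids (1470 to 1649 against 1260 to 1375 CPM). All 6 round spermatid markers were called lower after size factors. Spermatocyte markers, 2 lower and 1 higher of 7, summed to 4045 to 4150 and 3402 to 3486 CPM. Ldhc held most of this sum, with means of 3574 and 2956 CPM. Sycp3 stayed level on the deposited CPM, at 78.0 CPM in both, and Spo11 rose from 65.75 to 79.23 CPM. With size factors Spo11, at a log2 fold change of 0.135, was not called, and Sycp3 was at -0.14. Of the 7 spermatocyte markers, 0 were then called higher and 4 lower. No marker that was tested was at 0 in any library. The part of these shifts in the isotype values was not tested.

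Median log2 fold changes set the isotypes beside these lists. The median was -0.28 over the 4 germ-cell isotypes and Tubd1, -0.23 over round spermatid and -0.63 over elongating spermatid markers. It was 0.72 over the 5 isotypes in wide use, 0.83 over Sertoli and 1.53 over Leydig markers. Over the remaining marker lists it was -0.21 for spermatocytes, 0.06 for peritubular cells, 0.31 for spermatogonia, 0.84 for endothelium and 1.55 for macrophages.

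Levels of different genes were compared as CPM per kilobase of annotated exon. In the wild type the order was Tuba3b at 846 ± 45.3 (SD, n = 4), Tuba3a at 747 ± 20.5, Tubb4b at 550 ± 30.5, Tuba8 at 87.9 ± 12.1, Tuba1a at 22.8 ± 1.62, Tubb5 at 17.1 ± 1.62, Tuba1b at 13.6 ± 1.39, Tubb3 at 10.5 ± 1.09, Tubd1 at 6.55 ± 0.850 and Tubb2a at 6.13 ± 0.757. With this length, the libraries of neighbours in the order overlapped for Tubb5 and Tuba1b and for Tubd1 and Tubb2a, and were apart for the other pairs. Tubd1 has 4652 bases of annotated exon but a canonical transcript of 1894 bases, so its place in the order depends on the length used. Tubb4b has 2090 and 1600 bases and Tubb5 3340 and 2652. Their separation from Tuba3a and Tuba1a, the genes next above them, therefore depends on the length as well. In the mutants Tuba3b and Tuba3a were at the same mean level within their spread, at 666 ± 15.6 (SD, n = 3) and 664 ± 82.7. Tubb3, at 23.2 ± 2.66 CPM per kilobase, passed Tuba1b, at 19.6 ± 0.542, and its libraries overlapped those of Tubb5, at 28.2 ± 2.08. The 3 major germ-cell isotypes kept the top places in both genotypes.

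As shares of the RNA of all 7 alpha-tubulin genes measured, per kilobase, Tuba3a and Tuba3b together made up 89.6% ± 0.926 (SD, n = 4) in the wild type and 88.1% ± 0.682 (SD, n = 3) in the mutants. These groups overlapped in part, with wild type 4 at 88.3% and mutant 1 at 88.5%. The shares of Tuba1a and Tuba1b together were 2.05% ± 0.128 (SD, n = 4) in the wild type and 3.38%, 4.32% and 3.78% in the mutants, without overlap. The share of Tuba1c, an alpha-tubulin gene outside the listed isotypes, overlapped between the groups, at 1.66% ± 0.0914 and 1.78% ± 0.0942. Tuba1c was above Tuba1a in the wild type, at 29.4 against 22.8 CPM per kilobase, and stood at 26.9 in the mutants. Tuba8 kept near its share, with 4.94% ± 0.626 and 4.73% ± 0.169.

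The beta-tubulins showed a wider shift. Of the RNA of the 5 beta-tubulin genes measured, Tubb4b made up 93.0%, 92.9%, 93.1% and 92.1% in the wild type and 87.6%, 85.1% and 87.2% in the mutants. Tubb5 went from 2.89% ± 0.203 to 5.39% ± 0.507 and Tubb3 from 1.76% ± 0.143 to 4.45% ± 0.658, with every mutant above every wild-type library. Tubb6, a further beta-tubulin in wide use, went from 1.56% ± 0.0732 to 2.62% ± 0.129, while Tubb2a was at 1.03% ± 0.0926 and 0.911% ± 0.0420. Tubb4b was thus the main beta-tubulin RNA in both genotypes. Its per-kilobase ratio to Tubb5 was 32.8, 34.4, 32.9 and 29.0 in the wild type and 17.1, 14.3 and 17.2 in the mutants, and its ratio to Tubb3 was 46.6 to 55.3 and 16.4 to 22.3. The ratio of Tuba3a and Tuba3b to Tuba1a and Tuba1b was 43.9 ± 3.01 (SD, n = 4) and 23.3 ± 3.00 (SD, n = 3). Shares and ratios are given as levels per library, without a test.

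**Figure D3:**
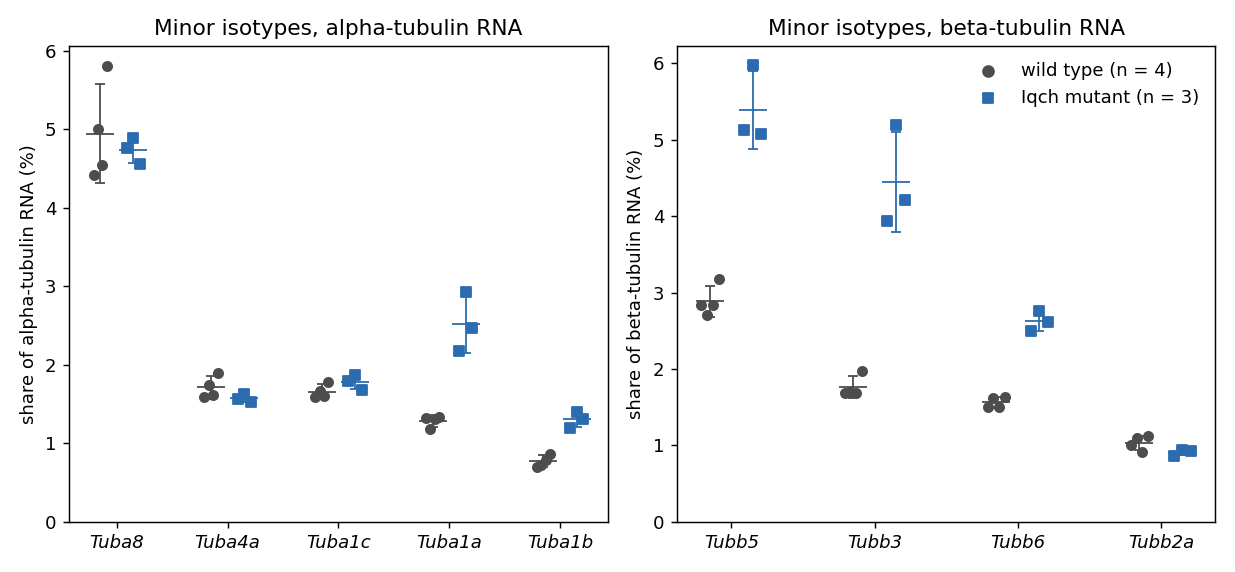
Share of all alpha-tubulin RNA (left) and all beta-tubulin RNA (right) taken by each minor isotype, in percent of summed CPM per kilobase, with points for libraries and dashes and bars for mean and SD (wild type n = 4, mutants n = 3). The mutant libraries lie above the wild type for Tuba1a, Tuba1b, Tubb5, Tubb3 and Tubb6, while Tuba8, Tuba4a, Tuba1c and Tubb2a overlap between the genotypes.

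Of 10 other tubulin genes, 5 have a row among the genes measured. Tubb6, on chromosome 18, rose from 35.1 ± 2.61 to 52.0 ± 1.04 CPM, by 0.57 ± 0.06 on the log2 scale (limma, FDR 7.28e-06). Tuba4a, an alpha-tubulin that lacks an encoded final tyrosine, fell from 166 ± 15.5 to 130 ± 6.91 CPM, by 0.35 ± 0.07 (limma, FDR 4.97e-04). Tuba1c, Tube1 for epsilon-tubulin and Tubg1 for gamma-tubulin were not called, with log2 fold changes of -0.13, -0.15 and 0.07. Tuba1c was called lower after size factors, at -0.26. The remaining 5, Tubal3, Tubb1, Tubb2b, Tubb4a and Tubg2, are not analysed here.

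Reads shared between copies bear on these values, since the copies of a gene and genes that overlap it can take or give reads. To describe this, each canonical transcript was aligned with BLAST to the GRCm39 genome and the GENCODE M39 transcripts. Every window as long as 1 read that lay within an exact match was counted as shared. The reads were sequenced in pairs, and the help of the second read in placing a pair was not counted. Of the windows, 100% were in its own gene alone for Tubb3, 96.3% for Tubd1, 94.0% for Tuba3b, 88.5% for Tuba8, 85.3% for Tuba3a and 78.0% for Tubb4b. Tuba3a and Tuba3b shared 99 windows with each other, 7.0% and 6.0% of the totals. The isotypes in wide use were less distinct apart from Tubb3, with 64.2% for Tuba1b, 63.1% for Tubb5, 31.7% for Tuba1a and 21.3% for Tubb2a.

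Each of these overlaps has its own values. Tubb4b shared 21.6% of its windows with the processed pseudogene Tubb4b-ps1 on chromosome 5, which was listed at 134.8 to 141.4 CPM in the wild type and 105.1 to 113.3 CPM in the mutants and was called lower by 0.36 ± 0.04 (limma, FDR 1.22e-05). The CPM ratio of Tubb4b to this pseudogene was 8.25 ± 0.625 (SD, n = 4) and 8.76 ± 0.256 (SD, n = 3), and the pair summed to a single row gave -0.29 (limma, FDR 2.00e-04), an alternative chosen after seeing the data. Tubb2a shared 78.7% of its windows with Bphl, a hydrolase gene on the opposite strand, and 21.3% with Tubb2b. Bphl rose from 8.45 to 13.3 CPM while Tubb2a fell. Tubb5 shared 36.9% of its windows with Flot1 on the opposite strand, which rose from 12.1 to 26.8 CPM, by 1.15 (limma, FDR 2.21e-07). Rps6kb1, which overlaps Tubd1 on the opposite strand, rose from 16.6 to 24.9 CPM, and overlapping genes held 3.7% of the Tubd1 windows. Tuba1a shared 30.8% of its windows with Tuba1c and others with Tuba1b, and both Tuba1a and Tuba1b overlap Gm49450, a gene model on the same strand. Because the strand setting of the counting and the treatment of reads with several matches are not given in the sources used here, the values of Tubb2a, Tuba1a, Tuba1b and Tubb5 are uncertain to this extent. The part of shared reads in their changes was not tested.

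**Figure D4:**
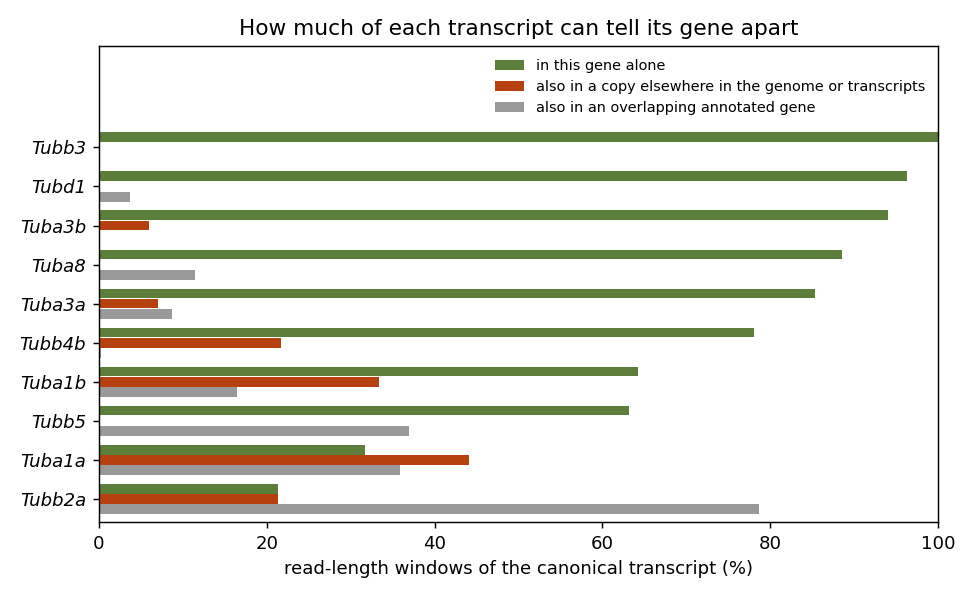
Percent of the read-length windows of each isotype's canonical transcript found in that gene alone (green), also in a copy elsewhere (orange) and also in an overlapping annotated gene (grey), where a window can count in both of the last. Tubb3 is wholly distinct (100%), while Tubb2a (21.3%) and Tuba1a (31.7%) have the least sequence of their own.

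The genes that make, modify and bind tubulin were read in 6 lists holding 93 genes, of which 88 were tested. Of these, 20 were called higher, 15 lower and 53 neither, with a median log2 fold change of 0.01. The 35 called stand beside 50.4% called among all genes, 36.3% as higher and 14.2% as lower, and the counts of each list below stand beside the same shares. After size factors 45 were called, 15 higher and 30 lower, beside 27% and 25.1% of all genes. The balance of directions thus depends on the scaling.

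Nucleation genes are the partners of gamma-tubulin in the ring complex that seeds microtubules. Of these 8, 4 were called higher (36.3% of all genes) and 0 lower (14.2%) by limma, and 4 were not called. Their median log2 fold change was 0.26. The largest were Tubgcp5 at 0.63 ± 0.07, Mzt1 at 0.51 ± 0.10 and Tubgcp3 at 0.45 ± 0.07, and all 3 stayed called after size factors. Tubg1 itself was not called.

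The 14 folding genes are the prefoldin subunits and tubulin cofactors that assemble the alpha-beta dimer. Of these, 4 were called higher (36.3% of all genes) and 0 lower (14.2%) by limma, with a median of 0.06. Vbp1, a prefoldin subunit, rose by 0.89 ± 0.12, the cofactor Tbce by 0.44 ± 0.07 and the cofactor Tbcd by 0.32 ± 0.06. Tbcd lost its call after size factors. Of 3 genes that tie tubulin mRNA decay to free tubulin, Ttc5, which recognises the nascent tubulin chain, was called at 0.29 ± 0.08 (limma, FDR 0.00864), and it lost the call after size factors.

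The 31 genes for enzymes that modify the tail or the lumen of microtubules leaned lower, with a median of -0.10. Of these, 9 were called lower (14.2% of all genes) and 4 higher (36.3%). After size factors 18 were called lower (25.1% of all genes) and 3 higher (27%). Ttll6, a polyglutamylase of cilia and flagella, fell from 242 ± 5.29 to 183 ± 4.97 CPM, by 0.40 ± 0.04 (limma, FDR 1.89e-06). Ttll10, a glycylase, fell by 0.35 ± 0.06 and Ttll2, a glutamylase, by 0.33 ± 0.09. Hdac6, the main tubulin deacetylase, rose from 74.1 ± 3.13 to 147 ± 9.72 CPM, by 0.98 ± 0.05 (limma, FDR 1.72e-08). Ttll12 rose by 0.71 ± 0.07. Ttl, the ligase that restores the final tyrosine, rose by 0.67 ± 0.17 at only 2.07 and 3.34 CPM and lost its call after size factors.

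Of 7 severing genes, 1 was called higher and 2 lower, with a median of 0.01. Katnbl1 was at 0.69 ± 0.14 and Katnal2, a katanin subunit needed in spermatids, at -0.34 ± 0.05 with wild type 4 below the other 3. Of 25 microtubule-associated proteins and stathmins, 6 were called higher and 4 lower, with a median of 0.14. Map6 rose by 0.96 ± 0.12, Map1b by 0.85 ± 0.05 and Clasp2 by 0.59 ± 0.07. Tppp2, a tubulin polymerisation-promoting protein of sperm, fell from 155 ± 3.66 to 97.0 ± 8.58 CPM, by 0.68 ± 0.06 (limma, FDR 4.84e-07), Map2 by 0.24 ± 0.04 and Clasp1 by 0.18 ± 0.05.

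**Figure D5:**
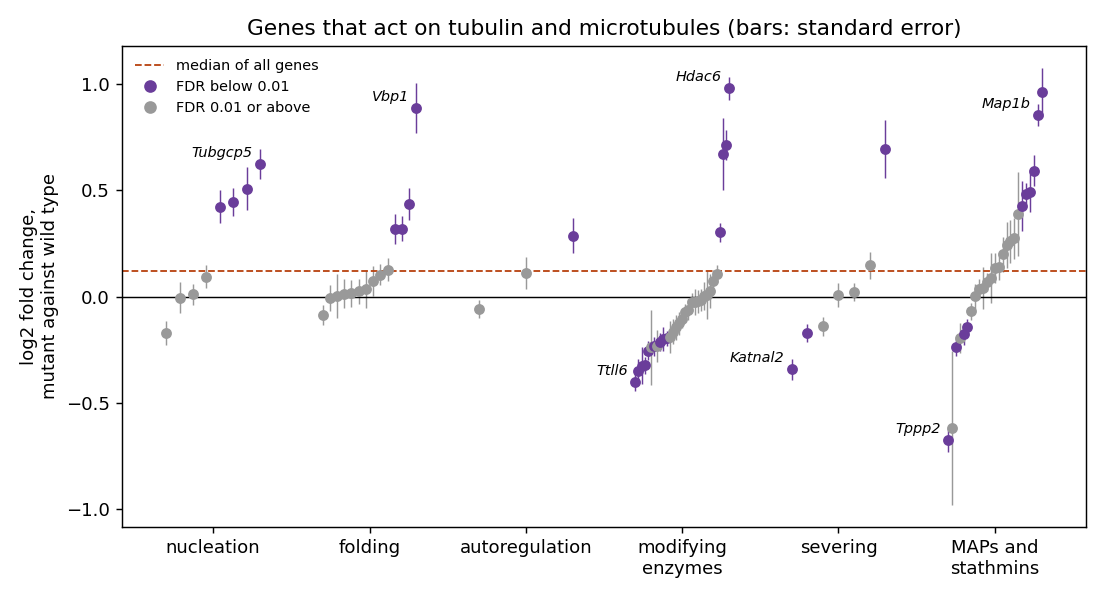
Log2 fold change (mutant against wild type) with its standard error for 88 genes that act on tubulin, in 6 lists and sorted within each, with purple for an FDR below 0.01 and grey for others. Hdac6 (0.98) and Map1b (0.85) stand above and Ttll6 (-0.40) and Tppp2 (-0.68) below the median of all genes (0.12, dashed).

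The gene whose profile was most like each isotype was read from Pearson's r of log2(CPM + 0.1) over the 7 libraries, among 11170 genes with a mean of at least 10 CPM. These r are a description, since the libraries fall into the genotypes and any pair of genes that differ between them has a high r. The nearest gene to Tuba8 was Ttll1, a tubulin polyglutamylase subunit, with r of 0.997. It was Hdac9 for Tuba3b (0.995), Abhd8 for Tuba3a (0.968), Ptdss2 for Tubb4b (1.00 when rounded) and Rab3ip for Tubd1 (0.982). For the isotypes in wide use it was Map2k4 for Tubb3, Agpat4 for Tuba1a, Phf20 for Tuba1b, Exosc7 for Tubb5 and Gm35550 for Tubb2a, with r of 0.983 or more.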

How the data were processed

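Paired-end reads had been trimmed (Trimmomatic 0.38), aligned to GRCm39 (Subread 2.0.0) and counted (featureCounts) by the authors, whose filter asked for 75 reads in no fewer than 2 samples of either genotype. The strand setting and annotation release are not given in the sources used here. The deposited values are CPM, which sum to 1000000 in each library. All values (100%) were whole multiples of 1 step, within 0.01 of a step, taken as 1 read.

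Tests used limma 3.58.1 on log2(CPM + 0.1), with a trend, on genes reaching 2.2 CPM in no fewer than 2 samples of either genotype, and Benjamini-Hochberg adjustment. The fit was checked on simulated data in which few genes were changed. In the real data 50.4% of genes were called, so the check does not give the error rate here. Symbols and exons came from GENCODE M39 (17045 genes found, 99.5%), and windows were matched with BLAST 2.17.0 and Biopython 1.88. The alternatives were other pseudocounts and minimums, size factors, a replicate block, array weights, summed copies, canonical transcript length and each library left out.

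The members and lists were chosen with earlier results of these data known. Named genes are all members, the called genes with the largest change in each list (up to 3 higher and 3 lower), and the gene of highest r with each member. Bphl, Flot1, Rps6kb1, Gm49450 and Tubb4b-ps1 were named for their overlap with members. A called gene of the lists and a sequence are not reported here.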

Additional observations from a re-analysis of the deposited data

Results flagged for a closer look

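In 2 of 37 genes checked, 1 wild-type library lay far from the other 3 of its group by Dixon's criterion, which chance meets in about 1 in 20 groups. Katnal2 was at 95.31 CPM in wild type 4, where the other 3 ranged from 105.9 to 106.9 CPM. The pseudogene Tubb4b-ps1 was at 134.8 CPM in wild type 1, against 140.4 to 141.4 CPM. None of the 10 isotypes was marked by this criterion in the wild type, and groups of 3 were not tested.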

How the results depend on the processing

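No isotype changed direction under any alternative run. Without each library in turn, the log2 fold changes ran from 0.65 to 0.78 for Tuba1a, 0.50 to 0.60 for Tuba1b, 0.67 to 0.77 for Tubb5, 1.06 to 1.21 for Tubb3, -0.38 to -0.32 for Tuba3b and -0.32 to -0.24 for Tubb4b, all called in 7 of 7 fits. They ran from -0.27 to -0.09 for Tuba3a (1 of 7 called), -0.35 to -0.20 for Tuba8 (4 of 7), -0.44 to -0.31 for Tubb2a (1 of 7) and 0.17 to 0.31 for Tubd1 (1 of 7). Called isotypes numbered 6 to 8 without a library and 8 to 9 otherwise, other tubulin genes 2 and 2 to 3, partner genes 27 to 34 and 32 to 45, and all genes 7237 to 8503 and 7722 to 9181. With the replicate number as a block, 8 isotypes, 2 other tubulin genes, 32 partner genes and 7722 genes were called. The numbers did not pair the libraries, since the deviations of same-numbered libraries correlated at 0.026, 0.0094 and -0.098. With the canonical transcript length, the share of Tuba3a and Tuba3b was 87.6% in the wild type and 86.1% in the mutants, that of Tubb4b 93.5% in the wild type, and that of Tubb3 1.36% and 3.46%. Tests with edgeR or DESeq2 on reads recovered from the CPM steps were planned and not run. Tuba3a, Tuba8, Tubb2a and Tubd1 lie nearest the threshold, and 4 against 3 libraries set the precision of their calls.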

Other observations

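Stmn1, which binds free tubulin dimers and was chosen here after its values were seen, had 45.7 to 49.5 CPM in the wild type, 49.9 CPM in mutant 1 and 49.1 CPM in mutant 2, but 12.1 CPM in mutant 4. It was not called (log2 fold change -0.62 ± 0.36, limma FDR 0.154).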
